A study of Homo sapiens with 27 samples.

Results

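The collagen genes were read out of RNA sequencing of Panc1, an established cell line from a human pancreatic ductal adenocarcinoma. Members were all genes in the deposited count table whose symbol reads COL, digits, A, digits, which gave 44 of 21487 genes. Of these, 11 encode chains of fibrillar collagens, 8 encode collagens of basement membranes (types IV, XV and XVIII) and 25 encode other types. After a filter on low counts 38 members were tested, 11 fibrillar, 8 of basement membranes and 19 of other types. The filter keeps genes with enough counts in a number of libraries that a single group can supply, so the tested members are not a random sample of the 44.

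Collagens are secreted or membrane-bound matrix proteins whose chains wind around each other into a helix. Types I, III, V and XI assemble into banded fibrils, in which types V and XI help to start and thin the fibril, while type IV forms the sheet-like network of basement membranes and type VI forms beaded filaments. Pancreatic ductal adenocarcinoma is known for a dense stroma rich in fibrillar collagen, most of it made by fibroblasts and stellate cells, although the cancer cells also transcribe collagen genes. The dimers of hypoxia-inducible factors with ARNT are known to raise enzymes that modify collagen, such as the prolyl hydroxylase P4HA1 and the lysyl hydroxylase PLOD2.

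The study compared ARNT knockout cells with parental cells to learn how ARNT shapes the response of Panc1 cells to low oxygen. ARNT is the partner subunit that hypoxia-inducible factors need to bind DNA. All groups were exposed for 48 hours, with 3 libraries per group and 27 in all. The knockout lines, clone A and clone B, were derived independently with CRISPR-Cas9, and each is a single clone, so a difference of 1 clone from parental cells can belong to that clone.

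Each of clone A, clone B and the parental cells was kept in 3 conditions, namely 1% O2 with TIFM (pancreatic tumor interstitial fluid medium), 1% O2 with regular medium (DMEM with fetal bovine serum), and 20% O2 with regular medium. These are called hypoxia with TIFM, hypoxia and normoxia. TIFM was used only in hypoxia, so its effect was compared with regular medium in hypoxia. Whether replicates were grown as separate cultures is not stated, and p-values therefore reflect no more than library-to-library spread. That spread was pooled over the 9 groups, at a coefficient of variation of 14.1%. For groups fitted alone it was 29.2% in clone A, 17.3% in clone B and 17.3% in parental cells in TIFM. In the same order it was 12.7%, 10.0% and 5.01% in hypoxia and 5.43%, 4.52% and 9.76% in normoxia. SE and p-values can thus be too small for comparisons with TIFM groups and too large for others.

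Levels are CPM, counts divided by library size and scaled with TMM factors, and a comparison between genes is given only as CPM per kilobase of exon. Changes are log2 ratios with the standard error (SE) of the fit, positive where the first-named group is higher. A gene was called at an adjusted p under 0.05 in edgeR's quasi-likelihood test with Benjamini-Hochberg adjustment over 13943 tested genes. RNA came from whole cultures, so fewer cells of a type and less RNA per cell cannot be told apart in any of these values.

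Libraries held 26057022 to 38341713 counts, with a median of 31727174. ARNT transcripts were present in every library, at 53.9, 60.1 and 51.99 CPM in clone A, 49.7, 52.1 and 44.6 CPM in clone B and 68.3, 59.3 and 63.95 CPM in parental cells in hypoxia with TIFM. ARNT in hypoxia stood at 68.3, 68.2 and 68.8 CPM in clone A, 67.5, 61.6 and 65.3 CPM in clone B and 74.1, 67.5 and 72.5 CPM in parental cells. ARNT in normoxia stood at 76.03, 77.4 and 73.1 CPM in clone A, 62.9, 63.1 and 65.5 CPM in clone B and 70.1, 75.3 and 68.3 CPM in parental cells. A transcript level of ARNT does not check a knockout made by small edits, so the genotypes rest on the labels. VEGFA averaged 105 CPM in hypoxia and 69.7 CPM in normoxia in clone A, and 62.35 and 37.5 CPM in clone B. In parental cells VEGFA averaged 386 CPM in hypoxia and 55.7 CPM in normoxia. Whether the smaller rise in the clones comes from the knockout was not tested. Keratins KRT7, KRT8, KRT18 and KRT19, markers of the epithelial line, summed to at least 749.9 CPM in every library. Their sum, though not KRT7 alone, was lowest in TIFM, at 749.9 to 1761 CPM in clone A, 831 to 1585 CPM in clone B and 2498 to 3144 CPM in parental cells. Without TIFM the keratin sum was 2107 to 3157 CPM in clone A, 5766 to 8672 CPM in clone B and 6228 to 8645 CPM in parental cells. The mesenchymal marker VIM in TIFM was at 2058 to 2854 CPM for clone A, 1855 to 2041 CPM for clone B and 2675 to 3842 CPM for parental cells. VIM in hypoxia was at 3999 to 5282 CPM for clone A, 4586 to 4705 CPM for clone B and 4311 to 4442 CPM for parental cells, and in normoxia at 5536 to 5996 CPM for clone A, 4389 to 4887 CPM for clone B and 3263 to 4169 CPM for parental cells. Sums over endothelial markers reached at most 1.53 CPM and over leukocyte markers at most 3.46 CPM, with MS4A1 at 0 in every library.

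A few libraries stood apart from their replicates in several collagen genes. Parental TIFM replicate 1, clone A TIFM replicate 3 and clone A normoxia replicate 1 had the highest COL3A1 of their groups, at 22.7 CPM against 7.44 and 10.0, 15.9 CPM against 6.46 and 5.83, and 17.6 CPM against 8.88 and 7.17. The sum over 8 fibroblast and stellate cell markers (DCN, LUM, PDGFRA, PDGFRB, FAP, THY1, DPT, RGS5) lay between 11.5 and 24.6 CPM over the 27 libraries and was highest within its group in each of these libraries. It was 20.1 CPM against 14.9 and 13.4 in parental TIFM, 14.4 against 11.6 and 11.5 in clone A TIFM, and 24.6 against 17.58 and 17.99 in clone A normoxia. DCN, LUM and PDGFRB were each highest within the group in these 3 libraries, but some other markers were not. RGS5 stood at 1.53 CPM in clone A TIFM replicate 3, against 2.94 and 2.71, and at 3.64 in clone A normoxia replicate 1, against 3.53 and 4.52. THY1 stood at 8.53 CPM in parental TIFM replicate 1, against 9.93 and 7.67. Parental normoxia replicate 3 had the highest sum of its group, 22.35 CPM against 20.01 and 19.57, but not the highest COL3A1. Clone B TIFM replicate 3 had the highest sum (16.08 CPM against 15.05 and 12.26), DCN, LUM and PDGFRB of its group, but the lowest COL3A1. In clone A hypoxia and in clone B hypoxia and normoxia the library with the highest sum also lacked the highest COL3A1. In parental hypoxia the same library was highest in both. DPT was at 0 in clone A TIFM, clone B hypoxia and clone B normoxia. The part of such cells in the collagen values was not tested. Counts of called members are therefore also given without parental TIFM replicate 1, clone A TIFM replicate 3 and clone A normoxia replicate 1. These 3 libraries were chosen after the values were seen and on the collagen levels themselves, so those counts are descriptions.

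The genotypes differed in which collagens led. Parental cells in hypoxia with TIFM were led by COL5A2 (39.1 CPM per kilobase) and COL18A1 (36.2), which overlapped between libraries. Parental cells in hypoxia and in normoxia were led by COL5A2 alone, at 61.4 and 51.5 CPM per kilobase, followed by COL18A1 at 27.6 and 23.7. Clone A had COL18A1 first in TIFM at 24.4 CPM per kilobase, and in hypoxia (26.0 and 25.1) and normoxia (26.0 and 26.4) COL18A1 and COL11A1 overlapped. Clone B in TIFM had COL18A1 at 17.8, COL1A1 at 17.4 and COL11A1 at 15.2 CPM per kilobase, each overlapping the next, while COL1A1 alone led in hypoxia (67.2) and normoxia (89.2).

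Summed over all members, collagen transcripts in hypoxia with TIFM made up 429 ± 83.1 CPM in clone A, 670.3 ± 48.9 CPM in clone B and 1050 ± 69.2 CPM in parental cells (SD, n = 3 each). The same sum in hypoxia was 769 ± 45.7 CPM in clone A, 1395 ± 59.0 CPM in clone B and 1252 ± 33.2 CPM in parental cells, and in normoxia it was 762 ± 35.7 CPM in clone A, 1520.0 ± 25.5 CPM in clone B and 1022 ± 39.6 CPM in parental cells. Clone A thus had the lowest sum in every condition, and clone B had the highest sum in both conditions with regular medium but not in TIFM.

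**Figure D1:**
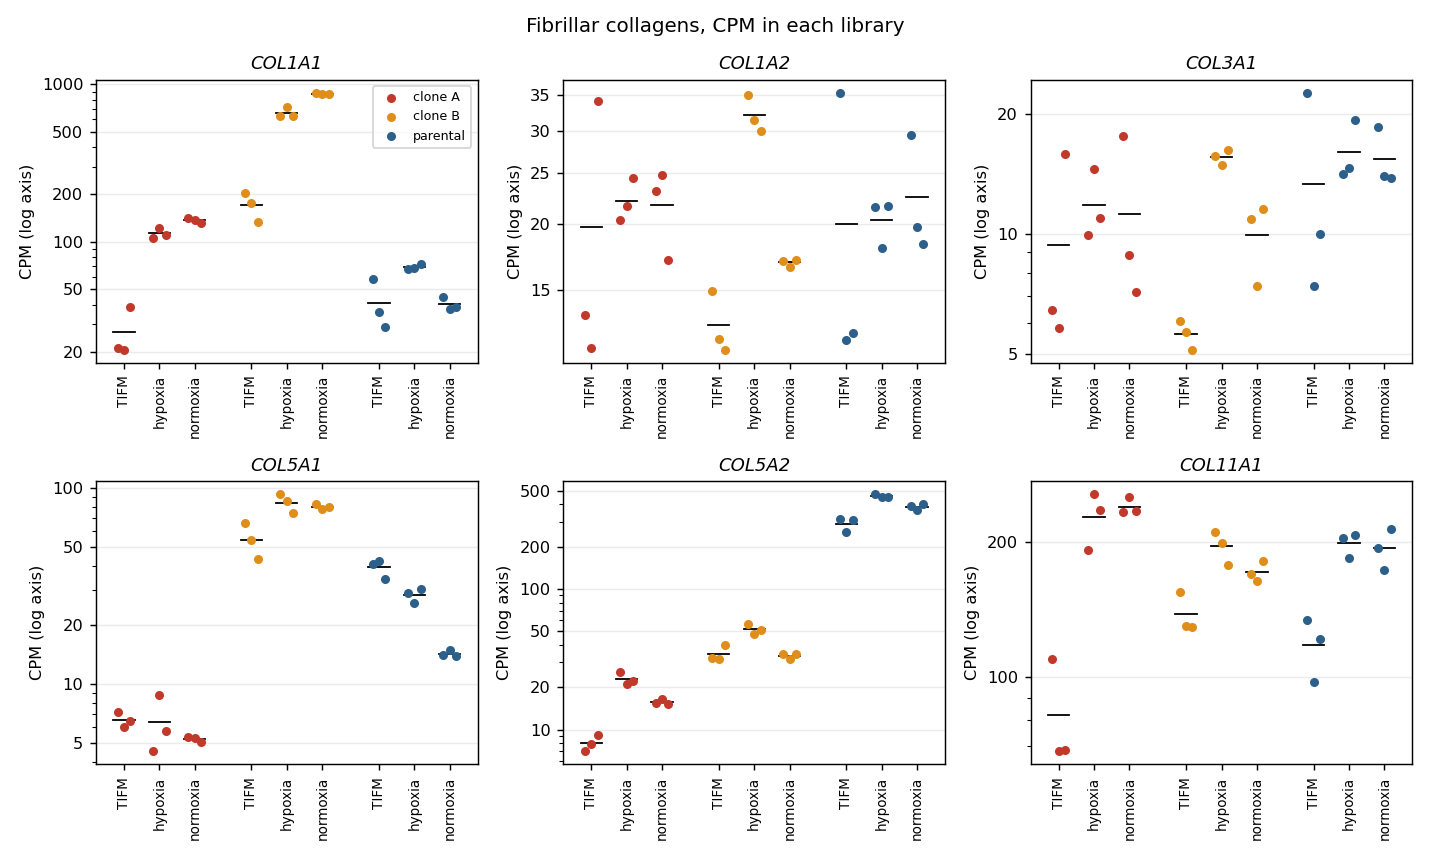
CPM on a log axis for 6 fibrillar collagen genes in each of the 27 libraries (points), grouped by genotype and condition, with the mean of each group as a black bar. COL5A2 lies far lower in clone A and clone B than in parental cells, COL1A1 is highest in clone B, and COL1A2 and COL3A1 each have a single high point in parental TIFM and in clone A TIFM.

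Against parental cells the clones shared large differences in a few collagens and went opposite ways in others. In normoxia clone A had 13 members lower and 6 higher than parental cells, where 15.8% of all tested genes were lower and 15.9% higher. Clone B had 6 members lower and 13 higher, against 13.3% and 13.2% of all tested genes. The median log2 difference of the 38 members was -0.26 in clone A and 0.32 in clone B, beside 0.04 and 0.01 over all tested genes. COL5A2, COL26A1, COL6A1, COL6A2, COL12A1 and COL4A2 were lower in both clones, COL1A1, COL13A1, COL21A1, COL9A2 and COL4A3 were higher in both, and COL5A1 and COL4A5 were lower in clone A and higher in clone B. Both clones were compared with the same parental libraries. The share of all tested genes called alike in both was not counted, so these lists are descriptions. The keratin sum was lower in clone A than in parental cells in every condition and lower in clone B in TIFM. VIM was higher in both clones than in parental cells in normoxia and lower in clone B in TIFM, with no overlap, and the part of these markers was not tested.

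Hypoxia gave more members lower in the clones, 16 lower and 5 higher in clone A (20.9% and 20.5% of all tested genes) and 10 lower and 12 higher in clone B (19.0% and 16.9%). In hypoxia with TIFM, 21 members were lower and 4 higher in clone A (30.7% and 30.9%), and 14 were lower and 7 higher in clone B (25.4% and 22.1%). Of these, 9 members were lower and 4 higher in both clones in hypoxia, and 12 were lower and 3 higher in both in TIFM. How many of all tested genes were called alike in both clones was not counted, so these joint counts are descriptions. Without the 3 libraries named above, clone A had 15 members lower and 5 higher in normoxia and 20 lower and 4 higher in TIFM, and clone B had 13 lower and 6 higher in TIFM. Of all tested genes, 4026, 7600 and 6717 were then called in either direction, in the same order.

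COL1A1, the main chain of type I collagen (chromosome 17, 50183289 to 50201632, minus strand, GRCh38), was the fibrillar gene with the largest gain in clone B. COL1A1 in hypoxia with TIFM stood at 21.2, 20.7 and 38.4 CPM in clone A, 205, 176 and 133 CPM in clone B and 58.1, 35.7 and 28.7 CPM in parental cells. COL1A1 in hypoxia stood at 106, 122 and 111 CPM in clone A, 632, 716 and 633 CPM in clone B and 67.4, 68.04 and 72.2 CPM in parental cells. COL1A1 in normoxia stood at 142, 137 and 132 CPM in clone A, 888, 869 and 871 CPM in clone B and 44.5, 37.2 and 38.8 CPM in parental cells. Clone B lay above both other genotypes in every library of every condition, clone A lay above parental cells in hypoxia and normoxia, and clone A and parental libraries overlapped in TIFM. In normoxia clone B was 21.8-fold higher than parental cells (log2 4.45 ± 0.23, adjusted p = 4.07e-14) and clone A 3.41-fold higher (log2 1.77 ± 0.20, adjusted p = 1.51e-07). The difference was smaller in hypoxia, at 3.25 ± 0.21 in clone B and 0.71 ± 0.20 in clone A. In TIFM it was 2.06 ± 0.21 in clone B, while clone A was lower than parental cells at -0.62 ± 0.20 (adjusted p = 0.011), a call that was lost at -0.48 (adjusted p = 0.0712) without clone A TIFM replicate 1, -0.42 (adjusted p = 0.11) without clone A TIFM replicate 2 and -0.27 (adjusted p = 0.227) without parental TIFM replicate 1.

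COL1A2, the partner chain of type I collagen, was not called against parental cells. COL1A2 in hypoxia with TIFM stood at 13.5, 11.7 and 34.1 CPM in clone A, 14.96, 12.2 and 11.6 CPM in clone B and 35.4, 12.1 and 12.5 CPM in parental cells. COL1A2 in hypoxia stood at 20.4, 21.6 and 24.4 CPM in clone A, 35.1, 31.4 and 29.9 CPM in clone B and 21.5, 18 and 21.7 CPM in parental cells. COL1A2 in normoxia stood at 23.1, 24.8 and 17.1 CPM in clone A, 17.1, 16.6 and 17.1 CPM in clone B and 29.4, 19.7 and 18.4 CPM in parental cells. COL1A2 of clone A overlapped that of parental cells in every condition. Clone B overlapped parental cells in TIFM, lay above them in hypoxia at 0.66 ± 0.32 and below them in normoxia at -0.41 ± 0.32, and neither clone passed the test in any condition. Per kilobase, the ratio of COL1A1 to COL1A2 in normoxia was 7.33 ± 1.25 in clone A, 58.7 ± 0.879 in clone B and 2.09 ± 0.344 in parental cells (SD, n = 3 each). In TIFM the ratio was 1.69 ± 0.376 in clone A, 15.0 ± 1.75 in clone B and 2.61 ± 0.745 in parental cells.

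COL5A2, a chain of type V collagen (chromosome 2, 189031896 to 189225312, minus strand), was the leading collagen of parental cells and was far lower in both clones. COL5A2 in hypoxia with TIFM stood at 6.99, 7.91 and 9.08 CPM in clone A, 32.1, 31.8 and 40.01 CPM in clone B and 314, 254 and 307 CPM in parental cells. COL5A2 in hypoxia stood at 25.5, 21.1 and 22.2 CPM in clone A, 56.5, 48.1 and 51.2 CPM in clone B and 471, 452 and 451 CPM in parental cells. COL5A2 in normoxia stood at 15.5, 16.6 and 15.1 CPM in clone A, 34.3, 31.5 and 34.5 CPM in clone B and 386, 363 and 402 CPM in parental cells. No clone library reached any parental library, and clone B lay above clone A throughout. COL5A2 was 24.4-fold lower in clone A in normoxia (log2 -4.61 ± 0.13, adjusted p = 3.25e-19) and 11.5-fold lower in clone B (log2 -3.52 ± 0.12, adjusted p = 8.89e-18). The log2 differences in hypoxia were -4.32 ± 0.12 for clone A and -3.14 ± 0.12 for clone B, and in TIFM -5.19 ± 0.13 for clone A and -3.07 ± 0.12 for clone B.

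COL5A1, the other widespread chain of type V collagen (chromosome 9, 134641774 to 134844843, plus strand), differed in opposite directions. COL5A1 in hypoxia with TIFM stood at 7.19, 5.996 and 6.42 CPM in clone A, 65.8, 54.3 and 43.1 CPM in clone B and 41.1, 42.2 and 34.3 CPM in parental cells. COL5A1 in hypoxia stood at 4.51, 8.80 and 5.74 CPM in clone A, 92.7, 85.3 and 74.02 CPM in clone B and 28.9, 25.9 and 30.6 CPM in parental cells. COL5A1 in normoxia stood at 5.33, 5.26 and 5.03 CPM in clone A, 82.4, 77.9 and 80.02 CPM in clone B and 13.9, 14.8 and 13.8 CPM in parental cells. The 3 genotypes did not overlap in any condition, with clone A lowest and clone B highest. Against parental cells clone A stood at -1.45 ± 0.17 (adjusted p = 2.81e-07) and clone B at 2.50 ± 0.17 (adjusted p = 8.31e-12) in normoxia. In hypoxia the log2 differences were -2.16 ± 0.17 for clone A and 1.56 ± 0.16 for clone B, and in TIFM clone A was at -2.58 ± 0.18. Clone B in TIFM was higher by 0.47 ± 0.16 (adjusted p = 0.0159), but the call was lost at 0.34 (adjusted p = 0.106) without clone B TIFM replicate 1 and 0.39 (adjusted p = 0.0785) without parental TIFM replicate 3.

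COL11A1, a chain of type XI collagen that is widely used as a marker of desmoplastic tumors (chromosome 1, 102876467 to 103108872, minus strand), was high in all genotypes. COL11A1 in hypoxia with TIFM stood at 110, 68.2 and 68.8 CPM in clone A, 155, 129.9 and 129 CPM in clone B and 134, 97.7 and 122 CPM in parental cells. COL11A1 in hypoxia stood at 192, 256 and 236 CPM in clone A, 211, 199 and 178 CPM in clone B and 204, 185 and 208 CPM in parental cells. COL11A1 in normoxia stood at 233, 252 and 235 CPM in clone A, 169.5, 164 and 181 CPM in clone B and 195, 173 and 214 CPM in parental cells. Neither clone was called against parental cells in hypoxia or normoxia, and in TIFM clone A was lower at -0.52 ± 0.15 (adjusted p = 0.00429) with overlapping libraries. It stood at -0.30 without the 3 libraries named above, which were chosen after the values were seen, so no p is given. COL3A1, the single chain of type III collagen, gave no call in either clone in hypoxia or normoxia. COL3A1 in hypoxia with TIFM stood at 6.46, 5.83 and 15.9 CPM in clone A, 6.07, 5.70 and 5.13 CPM in clone B and 22.7, 7.44 and 10.04 CPM in parental cells. COL3A1 in hypoxia stood at 9.98, 14.6 and 10.98 CPM in clone A, 15.7, 14.9 and 16.3 CPM in clone B and 14.1, 14.7 and 19.4 CPM in parental cells. COL3A1 in normoxia stood at 17.6, 8.88 and 7.17 CPM in clone A, 10.95, 7.42 and 11.6 CPM in clone B and 18.6, 13.97 and 13.9 CPM in parental cells. In TIFM clone B was lower than parental cells at -1.25 ± 0.36 (adjusted p = 0.00641), which became -0.63 (adjusted p = 0.151) without parental TIFM replicate 1. COL27A1, a fibrillar collagen known from cartilage, was at 1.69, 1.54 and 1.75 CPM in clone A, 5.55, 6.37 and 5.41 CPM in clone B and 5.55, 4.58 and 6.02 CPM in parental cells in normoxia. It was lower in clone A in normoxia (-1.69 ± 0.31), in hypoxia (-2.59 ± 0.29) and in TIFM (-3.21 ± 0.32), and lower in clone B in TIFM (-1.14 ± 0.28), while clone B stood at 0.10 ± 0.28 in normoxia and -0.44 ± 0.26 in hypoxia, neither past the test. The remaining fibrillar members, COL2A1, COL5A3, COL11A2 and COL24A1, stayed at or below 2.62 CPM in every library.

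COL4A1 and COL4A2, whose chains combine into the common type IV network, lie head to head on chromosome 13. In RefSeq (GRCh38.p14) their starts are 127 bases apart on opposite strands, and windows of 250 bases before to 50 after each start share 226 bases. The COL4A2 window is shown because it overlaps that of COL4A1 and both genes were called higher in hypoxia in parental cells, and capitals mark ACGTG or GCGTG on either strand, the core letters of the element bound by hypoxia-inducible factors. The COL7A1 window is shown because this gene was called in hypoxia in every genotype, and that of COL26A1 because it had the largest differences between clones and parental cells.
COL4A2, chr13:110307034-110307333, plus strand: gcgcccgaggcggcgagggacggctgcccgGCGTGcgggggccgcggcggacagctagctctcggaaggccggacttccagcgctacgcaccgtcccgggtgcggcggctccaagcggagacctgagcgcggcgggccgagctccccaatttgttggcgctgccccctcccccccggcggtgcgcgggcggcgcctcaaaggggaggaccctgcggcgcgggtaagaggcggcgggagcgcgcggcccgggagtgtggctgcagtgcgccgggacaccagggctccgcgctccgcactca
COL7A1, chr3:48595280-48595579, minus strand: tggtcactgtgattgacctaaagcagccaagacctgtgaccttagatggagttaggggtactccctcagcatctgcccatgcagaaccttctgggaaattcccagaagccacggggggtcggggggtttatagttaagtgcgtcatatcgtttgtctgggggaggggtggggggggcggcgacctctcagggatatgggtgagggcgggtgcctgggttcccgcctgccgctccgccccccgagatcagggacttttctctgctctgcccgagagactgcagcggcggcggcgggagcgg
COL26A1, chr7:101362625-101362924, plus strand: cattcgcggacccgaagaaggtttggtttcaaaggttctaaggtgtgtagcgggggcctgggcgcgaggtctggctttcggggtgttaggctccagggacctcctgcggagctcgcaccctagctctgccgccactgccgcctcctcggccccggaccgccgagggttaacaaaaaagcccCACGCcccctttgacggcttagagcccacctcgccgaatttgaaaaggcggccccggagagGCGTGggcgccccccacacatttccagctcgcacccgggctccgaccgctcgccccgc
The COL4A2 window holds 1 such match, that of COL26A1 holds 2 and that of COL7A1 holds 0. The COL4A1 window, not shown, also holds 0, since the COL4A2 match lies outside the bases that the windows share. Of 44 members 32 had an entry in the RefSeq promoter table, and 14 of these (43.8%) held at least 1 match, beside 48.45% of all 35116 windows of this length. A match describes letters, not binding.

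Among basement membrane genes COL4A2 (chromosome 13, 110305812 to 110513209, plus strand) was lower in both clones in all conditions. COL4A2 in hypoxia with TIFM stood at 1.74, 1.29 and 1.93 CPM in clone A, 0.794, 1.03 and 1.10 CPM in clone B and 16.97, 18.3 and 16.2 CPM in parental cells. COL4A2 in hypoxia stood at 1.61, 3.15 and 1.99 CPM in clone A, 1.83, 1.61 and 1.30 CPM in clone B and 9.44, 9.68 and 9.95 CPM in parental cells. COL4A2 in normoxia stood at 0.943, 3.43 and 2.37 CPM in clone A, 3.04, 2.48 and 2.49 CPM in clone B and 4.93, 5.34 and 4.08 CPM in parental cells. Every clone library lay below every parental library. In TIFM the log2 difference was -3.38 ± 0.29 for clone A (adjusted p = 2.25e-10) and -4.14 ± 0.30 for clone B (adjusted p = 2.40e-11), and in hypoxia -2.10 ± 0.27 for clone A and -2.62 ± 0.28 for clone B. In normoxia it was -1.09 ± 0.27 for clone A and -0.84 ± 0.26 for clone B.

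COL4A1 (chromosome 13, 110148963 to 110307233, minus strand) was called lower in both clones in hypoxia and in TIFM and in neither in normoxia. COL4A1 in hypoxia with TIFM stood at 1.41, 0.916 and 2.22 CPM in clone A, 0.667, 0.895 and 0.264 CPM in clone B and 7.78, 5.09 and 4.19 CPM in parental cells. COL4A1 in hypoxia stood at 3.54, 6.15 and 3.24 CPM in clone A, 4.12, 3.84 and 3.25 CPM in clone B and 8.61, 9.12 and 10.2 CPM in parental cells. COL4A1 in normoxia stood at 1.37, 6.64 and 4.94 CPM in clone A, 5.80, 3.91 and 5.16 CPM in clone B and 4.15, 4.67 and 3.15 CPM in parental cells. COL4A1 overlapped between genotypes in normoxia, at 0.11 ± 0.37 for clone A and 0.31 ± 0.36 for clone B, neither past the test. In TIFM it was lower in clone A (-1.93 ± 0.41) and in clone B (-3.20 ± 0.45), with no overlap with parental cells. In hypoxia clone B was lower at -1.32 ± 0.36 and clone A at -1.11 ± 0.36 (adjusted p = 0.015), the clone A call being lost at -0.99 (adjusted p = 0.0602) without clone A hypoxia replicate 1 and -0.94 (adjusted p = 0.0796) without clone A hypoxia replicate 3.

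COL4A5 and COL4A6, chains of type IV networks with narrower distribution, are also head to head, on chromosome X. COL4A5 in hypoxia with TIFM stood at 0.736, 1.04 and 0.543 CPM in clone A, 7.56, 8.25 and 13.8 CPM in clone B and 9.58, 5.55 and 12.3 CPM in parental cells. COL4A5 in hypoxia stood at 4.61, 4.35 and 3.63 CPM in clone A, 18.95, 19.5 and 21.04 CPM in clone B and 24.6, 21.9 and 18.5 CPM in parental cells. COL4A5 in normoxia stood at 2.89, 3.53 and 3.81 CPM in clone A, 18.4, 16.4 and 19.6 CPM in clone B and 11.1, 8.997 and 11.8 CPM in parental cells. Clone A lay below both other genotypes in every condition, with log2 differences from parental cells of -3.55 ± 0.29 in TIFM, -2.37 ± 0.23 in hypoxia and -1.64 ± 0.24 in normoxia. Clone B overlapped parental cells in TIFM and hypoxia. In normoxia clone B was higher than parental cells at 0.77 ± 0.22 (adjusted p = 0.00903), which became 0.66 (adjusted p = 0.0548) without parental normoxia replicate 2. COL4A6 averaged 0.533 ± 0.132 CPM in clone A, 2.23 ± 0.330 CPM in clone B and 1.19 ± 0.384 CPM in parental cells in hypoxia (SD, n = 3 each), with clone A again the lowest. COL4A3, another type IV chain, lay between 1.15 and 4.16 CPM in all libraries.

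COL18A1, the source of endostatin and the most abundant basement membrane member (chromosome 21, 45405137 to 45513720, plus strand), shares 16.4% of its exon length with SLC19A1 on the opposite strand, and whether counting used strand is not given in the sources used here. COL18A1 in hypoxia with TIFM stood at 149, 206 and 269 CPM in clone A, 143, 163 and 150.3 CPM in clone B and 292, 363 and 272 CPM in parental cells. COL18A1 in hypoxia stood at 229, 221 and 217 CPM in clone A, 183, 182 and 182 CPM in clone B and 236, 231 and 239 CPM in parental cells. COL18A1 in normoxia stood at 247, 212 and 207 CPM in clone A, 200.2, 192 and 183 CPM in clone B and 203, 208 and 196 CPM in parental cells. In TIFM all clone libraries lay below all parental libraries, at -0.57 ± 0.13 for clone A (adjusted p = 0.000696) and -1.02 ± 0.14 for clone B (adjusted p = 8.56e-07). Normoxia gave no call in either clone. In hypoxia clone B was lower at -0.37 ± 0.13 (adjusted p = 0.0334), a call lost in 6 of the fits that left out 1 library, at -0.36 to -0.38 (adjusted p = 0.0615 to 0.0803) when each of these libraries in turn was left out, namely clone B hypoxia replicate 1, clone B hypoxia replicate 2, clone B hypoxia replicate 3, parental hypoxia replicate 1, parental hypoxia replicate 2 and parental hypoxia replicate 3.

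COL26A1, a secreted collagen of little-known function known from mouse testis and ovary (chromosome 7, 101362820 to 101559024, plus strand), had the largest difference from parental cells, by the size of log2, among the 38 tested members in both clones and each condition. COL26A1 in hypoxia with TIFM stood at 0.0334, 0.125 and 0.198 CPM in clone A, 0.254, 0.0994 and 0.113 CPM in clone B and 26.4, 36.5 and 23.4 CPM in parental cells. COL26A1 in hypoxia stood at 0.129, 0.189 and 0.179 CPM in clone A, 0.530, 0.238 and 0.248 CPM in clone B and 25.7, 24.98 and 27.2 CPM in parental cells. COL26A1 in normoxia stood at 0.228, 0.225 and 0.339 CPM in clone A, 0.310, 0.189 and 0.574 CPM in clone B and 16.5, 18.3 and 14.9 CPM in parental cells. The highest clone library had 0.574 CPM and the lowest parental library 14.9 CPM. The log2 differences of clone A were -8.00 ± 0.35 in TIFM, -7.26 ± 0.32 in hypoxia and -5.94 ± 0.30 in normoxia (adjusted p = 2.74e-14). Those of clone B were -7.47 ± 0.33 in TIFM, -6.25 ± 0.29 in hypoxia and -5.52 ± 0.28 in normoxia (adjusted p = 4.00e-14).

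COL6A1 and COL6A2, chains of the type VI collagen that forms beaded filaments around cells, were lower in both clones in every condition. COL6A1 in hypoxia with TIFM stood at 3.55, 3.12 and 4.89 CPM in clone A, 6.29, 7.89 and 8.34 CPM in clone B and 22.8, 22.99 and 19.4 CPM in parental cells. COL6A1 in hypoxia stood at 8.15, 6.78 and 8.63 CPM in clone A, 13.7, 13.7 and 14.3 CPM in clone B and 22.6, 21.3 and 24.4 CPM in parental cells. COL6A1 in normoxia stood at 7.15, 5.23 and 4.41 CPM in clone A, 12, 11.3 and 12.1 CPM in clone B and 21.5, 23.1 and 21.4 CPM in parental cells. COL6A1 differed from parental cells by -1.98 ± 0.16 for clone A and -0.90 ± 0.15 for clone B in normoxia, and by -2.51 ± 0.17 for clone A and -1.54 ± 0.16 for clone B in TIFM. COL6A2 in hypoxia with TIFM stood at 4.85, 6.16 and 9.38 CPM in clone A, 12.6, 12.6 and 14.1 CPM in clone B and 40.8, 51.7 and 35.9 CPM in parental cells. COL6A2 in hypoxia stood at 6.25, 5.58 and 5.33 CPM in clone A, 9.27, 10.9 and 9.63 CPM in clone B and 26.9, 25.2 and 25.6 CPM in parental cells. COL6A2 in normoxia stood at 6.02, 6.48 and 4.63 CPM in clone A, 8.03, 9.29 and 7.51 CPM in clone B and 19.7, 18.98 and 15.2 CPM in parental cells. COL6A2 in normoxia differed by -1.66 ± 0.18 for clone A and -1.12 ± 0.18 for clone B, and in TIFM by -2.67 ± 0.19 for clone A and -1.71 ± 0.18 for clone B. Neither gene overlapped between either clone and parental cells in any condition. COL6A1 and COL6A2 are neighbours on chromosome 21. COL6A3, the other common chain, was not called against parental cells in normoxia or TIFM. In hypoxia clone B was higher, with 8.65, 9.67 and 10.5 CPM in clone B and 4.49, 3.80 and 6.44 CPM in parental cells (0.97 ± 0.34, adjusted p = 0.028), a call lost at 0.96 (adjusted p = 0.0607) without clone B hypoxia replicate 2, 0.90 (adjusted p = 0.0763) without clone B hypoxia replicate 3, 0.91 (adjusted p = 0.0888) without parental hypoxia replicate 1 and 0.81 (adjusted p = 0.12) without parental hypoxia replicate 2.

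COL12A1, a collagen that binds to the surface of fibrils, was lower in the clones. COL12A1 in hypoxia with TIFM stood at 13.2, 10.5 and 11.9 CPM in clone A, 12.7, 10.3 and 9.70 CPM in clone B and 29.8, 12.8 and 26.5 CPM in parental cells. COL12A1 in hypoxia stood at 8.89, 10.5 and 10.7 CPM in clone A, 7.59, 8.89 and 7.01 CPM in clone B and 23.3, 19.5 and 20.8 CPM in parental cells. COL12A1 in normoxia stood at 8.94, 5.84 and 6.83 CPM in clone A, 4.68, 3.89 and 4.95 CPM in clone B and 16.97, 14.5 and 17.8 CPM in parental cells. Its log2 difference in normoxia was -1.19 ± 0.21 for clone A and -1.87 ± 0.22 for clone B, in hypoxia -1.08 ± 0.21 for clone A and -1.44 ± 0.21 for clone B, and in TIFM -0.96 ± 0.21 for clone A and -1.08 ± 0.21 for clone B. Clone A and parental libraries overlapped in TIFM.

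Among members that were higher in the clones, COL13A1 encodes a membrane-spanning collagen of cell contacts (chromosome 10, 69801867 to 69964275, plus strand). COL13A1 in hypoxia with TIFM stood at 3.24, 3.75 and 5.83 CPM in clone A, 2.48, 1.89 and 2.15 CPM in clone B and 2.45, 2.06 and 1.89 CPM in parental cells. COL13A1 in hypoxia stood at 19.9, 31.4 and 29.3 CPM in clone A, 7.59, 11.3 and 8.38 CPM in clone B and 3.09, 3.92 and 2.45 CPM in parental cells. COL13A1 in normoxia stood at 21.6, 18.7 and 20.4 CPM in clone A, 6.08, 7.26 and 7.98 CPM in clone B and 1.74, 2.02 and 2.04 CPM in parental cells. In normoxia and hypoxia the genotypes did not overlap, with clone A highest, at 3.39 ± 0.23 (adjusted p = 6.14e-12) and 3.09 ± 0.22 against parental cells. Clone B stood at 1.88 ± 0.22 in normoxia and 1.52 ± 0.21 in hypoxia. In TIFM clone A was higher at 0.98 ± 0.23, while clone B was at 0.02 ± 0.24 and overlapped parental cells.

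COL21A1, another fibril-associated collagen (chromosome 6, 56056590 to 56394094, minus strand), was higher in both clones outside TIFM. COL21A1 in hypoxia with TIFM stood at 0.702, 0.541 and 0.543 CPM in clone A, 5.08, 5.83 and 4.23 CPM in clone B and 1.29, 0.818 and 1.41 CPM in parental cells. COL21A1 in hypoxia stood at 12.3, 13.03 and 10.7 CPM in clone A, 16.6, 20.8 and 18.9 CPM in clone B and 4.997, 4.30 and 5.99 CPM in parental cells. COL21A1 in normoxia stood at 6.24, 8.08 and 7.48 CPM in clone A, 18.3, 17.5 and 17.9 CPM in clone B and 5.24, 4.11 and 5.16 CPM in parental cells. Clone B was higher than parental cells in every condition, at 2.10 ± 0.20 in TIFM, 1.88 ± 0.16 in hypoxia and 1.89 ± 0.16 in normoxia. Clone A was higher in hypoxia (1.24 ± 0.16) and normoxia (0.59 ± 0.17) and lower in TIFM (-0.95 ± 0.25).

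COL9A3, a chain of type IX collagen of cartilage, shares 0.93% of its exon length with TCFL5. COL9A3 in hypoxia with TIFM stood at 2.91, 3.96 and 5.73 CPM in clone A, 5.24, 4.77 and 5.40 CPM in clone B and 6.80, 10.6 and 7.89 CPM in parental cells. COL9A3 in hypoxia stood at 21.9, 16.6 and 18.6 CPM in clone A, 10.3, 11.2 and 13.3 CPM in clone B and 13.1, 15.1 and 13.97 CPM in parental cells. COL9A3 in normoxia stood at 18.7, 17.7 and 17.2 CPM in clone A, 12.5, 12.96 and 11.2 CPM in clone B and 10.97, 11.4 and 9.88 CPM in parental cells. In normoxia clone A was higher than parental cells (0.73 ± 0.17, adjusted p = 0.00154), and in TIFM clone A (-1.02 ± 0.19) and clone B (-0.71 ± 0.18) were lower. In hypoxia clone A was higher at 0.44 ± 0.17 (adjusted p = 0.0403), a call lost at 0.33 (adjusted p = 0.172) without clone A hypoxia replicate 1, 0.45 (adjusted p = 0.0724) without clone A hypoxia replicate 3, 0.39 (adjusted p = 0.128) without parental hypoxia replicate 1, 0.49 (adjusted p = 0.053) without parental hypoxia replicate 2 and 0.43 (adjusted p = 0.0914) without parental hypoxia replicate 3. COL7A1, which forms the anchoring fibrils below epithelia, was higher in clone B in normoxia (0.52 ± 0.12) and lower in clone A in hypoxia (-0.42 ± 0.12), and in TIFM it was lower in clone A (-1.13 ± 0.13) and clone B (-0.71 ± 0.13).

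**Figure D2:**
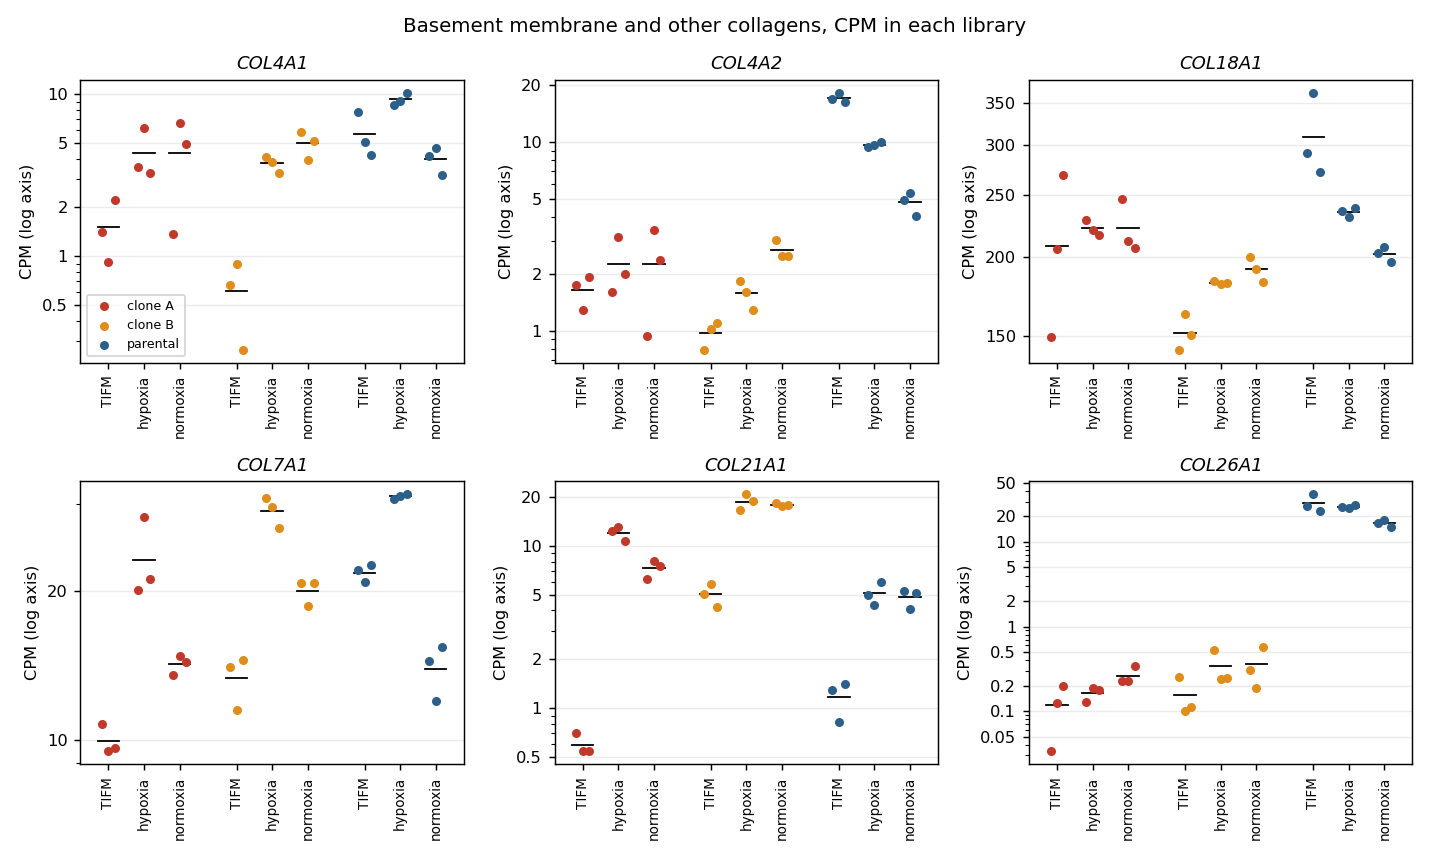
CPM on a log axis for 3 basement membrane genes (COL4A1, COL4A2, COL18A1) and 3 other collagen genes (COL7A1, COL21A1, COL26A1) in each of the 27 libraries (points), grouped by genotype and condition, with group means as black bars. COL26A1 and COL4A2 are lower in every clone library than in every parental library, COL7A1 is highest in hypoxia within each genotype, and COL21A1 is lowest in TIFM within each genotype.

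**Figure D3:**
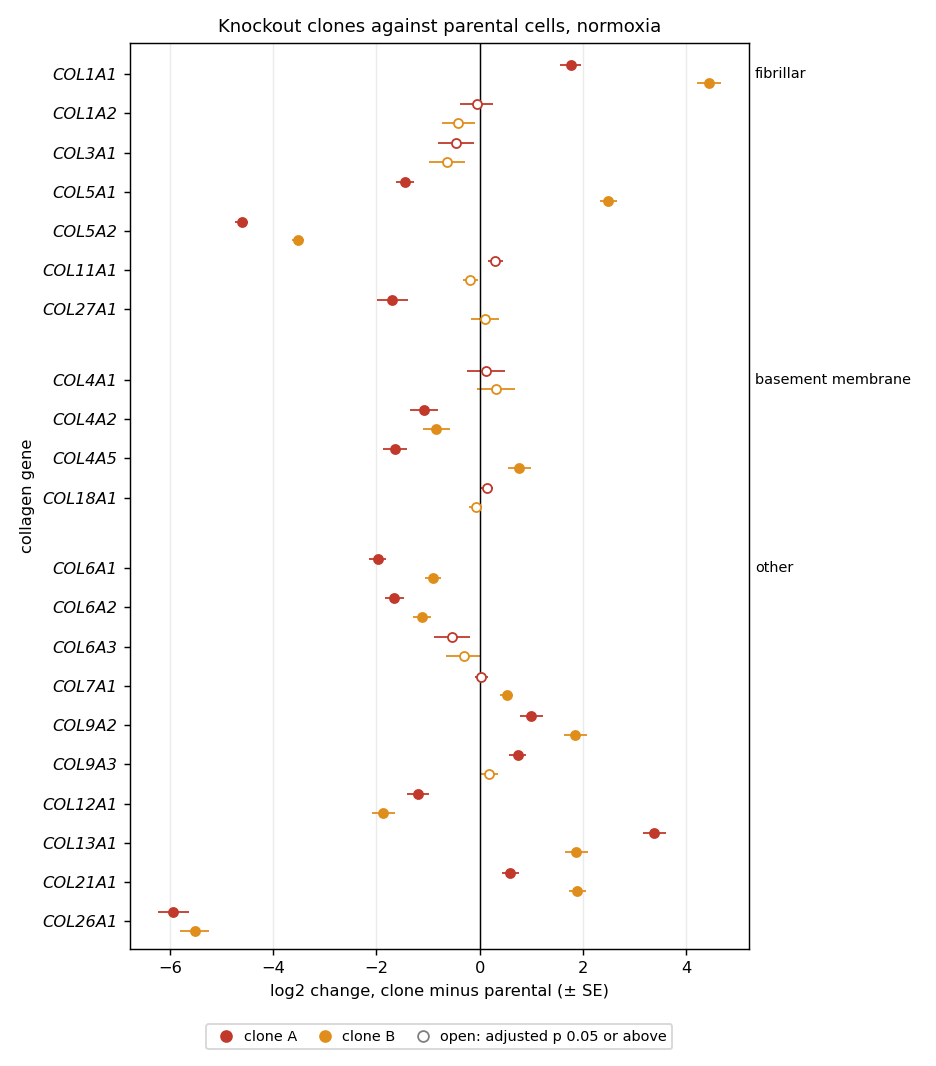
Log2 difference from parental cells in normoxia (x axis, bars ± SE of the fit) for the 21 members with a group mean of at least 5 CPM, clone A in red and clone B in orange, with open points at an adjusted p of 0.05 or above. COL5A2 and COL26A1 lie far to the left in both clones, COL1A1 and COL13A1 to the right, and COL5A1 and COL4A5 on opposite sides.

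The clones also differed from each other, mostly with clone B higher. In normoxia 14 members were higher and 4 lower in clone B than in clone A, where 11.7% of all tested genes were higher and 9.83% lower. Hypoxia gave 13 higher and 2 lower (12.9% and 12.2%), and TIFM 16 higher and 3 lower (26.7% and 29.4%). Without the 3 libraries named above, the counts were 14 higher and 3 lower in normoxia and 18 higher and 2 lower in TIFM. Of all tested genes, 2656 were then called in normoxia and 6635 in TIFM, in either direction. COL5A1, COL1A1 and COL4A5 were higher in clone B in all 3 conditions. COL5A1 differed by 3.06 ± 0.18 in TIFM, 3.72 ± 0.18 in hypoxia and 3.94 ± 0.18 in normoxia (adjusted p = 1.43e-14). The corresponding values of COL1A1 were 2.68 ± 0.21 in TIFM, 2.54 ± 0.21 in hypoxia and 2.68 ± 0.21 in normoxia, and those of COL4A5 were 3.65 ± 0.29 in TIFM, 2.24 ± 0.23 in hypoxia and 2.41 ± 0.24 in normoxia.

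COL13A1 was lower in clone B in all 3 conditions, at -0.96 ± 0.23 in TIFM, -1.56 ± 0.20 in hypoxia and -1.51 ± 0.20 in normoxia. COL9A3 was lower in clone B in hypoxia (-0.71 ± 0.17, adjusted p = 0.0027). In normoxia it stood at -0.55 ± 0.17 (adjusted p = 0.0213), a call lost at -0.52 (adjusted p = 0.0712) without clone A normoxia replicate 1, -0.56 (adjusted p = 0.0521) without clone A normoxia replicate 2, -0.57 (adjusted p = 0.0525) without clone B normoxia replicate 1 and -0.49 (adjusted p = 0.0945) without clone B normoxia replicate 3. COL12A1 in normoxia was lower in clone B at -0.68 ± 0.22 (adjusted p = 0.0294), and lost the call at -0.49 (adjusted p = 0.178) without clone A normoxia replicate 1, -0.71 (adjusted p = 0.0522) without clone A normoxia replicate 3, -0.71 (adjusted p = 0.0639) without clone B normoxia replicate 1 and -0.58 (adjusted p = 0.122) without clone B normoxia replicate 2. COL18A1 was lower in clone B in TIFM (-0.45 ± 0.13, adjusted p = 0.00603), and stood at -0.20 (adjusted p = 0.149) without clone A TIFM replicate 3. COL21A1 was higher in clone B in TIFM by 3.06 ± 0.22, with 5.05 ± 0.803 CPM in clone B and 0.596 ± 0.0925 CPM in clone A (SD, n = 3 each).

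With all libraries in the fit, more members were called higher in hypoxia in parental cells than in either clone, and none was called lower in any genotype by edgeR's test. In parental cells 14 of 38 members were higher in hypoxia than in normoxia and 0 lower, against 15.4% and 14.9% of all tested genes. Clone A had 5 members higher and 0 lower (10.4% and 11.8%), and clone B had 4 higher and 0 lower (4.46% and 4.84%). The share of members called higher was above that of all genes in parental cells and in clone B and close to it in clone A. The median change of the members was 0.29 in clone A, 0.33 in clone B and 0.38 in parental cells, beside -0.0054, -0.0147 and -0.0022 over all tested genes. Of lower members, an unadjusted p under 0.05 in edgeR's test was reached by 1 in clone A, 3 in clone B and 0 in parental cells, and DESeq2 called 0 in each. In clone A the count was 3 without normoxia replicate 2 or 3, and it was 6 higher and 0 lower without the 3 libraries named above. Of all tested genes, 2675 were called for clone A in either direction without those 3 libraries. A fit of only the libraries compared called more in each genotype, 9 members for clone A, 14 for clone B and 18 for parental cells. That fit also called more of all 13943 tested genes, 4925 for clone A, 4258 for clone B and 6831 for parental cells. The share of members called either way was then below that of all genes in clone A and above it in clone B. In parental cells it was close to that of all genes. The members called in that fit included lower ones, COL1A1 for both clones, COL4A2 for clone B and COL6A3 for parental cells. In clone B the count was 2 without hypoxia replicate 2 or without normoxia replicate 1, 2 or 3.

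COL7A1 was the only member called higher in hypoxia in all 3 genotypes. Its anchoring fibrils tie basement membranes to the tissue below (chromosome 3, 48564073 to 48595267, minus strand). How many of all tested genes were called higher in hypoxia in all 3 genotypes was not counted, so this is a description. COL7A1 in hypoxia stood at 20.1, 28.3 and 21.1 CPM in clone A, 30.8, 29.6 and 26.8 CPM in clone B and 30.8, 31.1 and 31.4 CPM in parental cells. COL7A1 in normoxia stood at 13.5, 14.8 and 14.4 CPM in clone A, 20.8, 18.7 and 20.7 CPM in clone B and 14.5, 12 and 15.4 CPM in parental cells. Hypoxic libraries lay above normoxic ones in each genotype. COL7A1 rose by 0.70 ± 0.12 in clone A (adjusted p = 0.000365), 0.54 ± 0.12 in clone B (adjusted p = 0.00716) and 1.16 ± 0.12 in parental cells (adjusted p = 1.41e-07) on the log2 scale.

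In parental cells the rise covered members of each class, 3 fibrillar, 4 of basement membranes and 7 of other types. COL27A1 was at 14.01, 14.02 and 13.7 CPM in hypoxia, against 5.55, 4.58 and 6.02 CPM in normoxia (log2 1.37 ± 0.27, adjusted p = 0.000434). COL5A1 (1.00 ± 0.16, adjusted p = 4.18e-05) and COL1A1 (0.78 ± 0.20, adjusted p = 0.00428) were the other fibrillar members that rose. Type IV chains were among those that rose, COL4A2 by 1.02 ± 0.25 (adjusted p = 0.00319) and COL4A5 by 1.03 ± 0.22 (adjusted p = 0.000853). COL4A1 stood at 1.22 ± 0.36 (adjusted p = 0.0118), and became 1.08 (adjusted p = 0.0584) without parental normoxia replicate 3. COL4A6 rose by 1.61 ± 0.41 from a low level, with 1.63, 0.980 and 0.956 CPM in hypoxia and 0.248, 0.478 and 0.432 CPM in normoxia. COL6A2 (0.53 ± 0.17, adjusted p = 0.0207) was lost at 0.50 (adjusted p = 0.0654) without parental hypoxia replicate 1 and 0.42 (adjusted p = 0.11) without parental normoxia replicate 3, and COL26A1 (0.65 ± 0.20, adjusted p = 0.0148) at 0.61 (adjusted p = 0.053) without parental hypoxia replicate 3 and 0.58 (adjusted p = 0.0675) without parental normoxia replicate 3.

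Clone A and clone B shared 1 further hypoxic rise, and how many of all tested genes rose in both was not counted. COL5A2 rose by 0.55 ± 0.11 for clone A (adjusted p = 0.00123) and 0.64 ± 0.11 for clone B (adjusted p = 0.000702), with no overlap between conditions, while parental cells stood at 0.26 ± 0.11 (adjusted p = 0.0718). COL21A1 rose in clone A by 0.72 ± 0.16 (adjusted p = 0.00228). COL6A1 in clone A stood at 0.49 ± 0.16 (adjusted p = 0.0293) with overlapping libraries, and was lost at 0.47 (adjusted p = 0.0857) without clone A hypoxia replicate 1, 0.42 (adjusted p = 0.113) without clone A hypoxia replicate 3, 0.45 (adjusted p = 0.104) without clone A normoxia replicate 2 and 0.34 (adjusted p = 0.177) without clone A normoxia replicate 3. COL12A1 rose in clone B by 0.80 ± 0.22 (adjusted p = 0.0227), which was lost at 0.70 (adjusted p = 0.0934) without clone B hypoxia replicate 2, 0.83 (adjusted p = 0.0648) without clone B normoxia replicate 1, 0.70 (adjusted p = 0.112) without clone B normoxia replicate 2 and 0.87 (adjusted p = 0.0501) without clone B normoxia replicate 3.

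**Figure D4:**
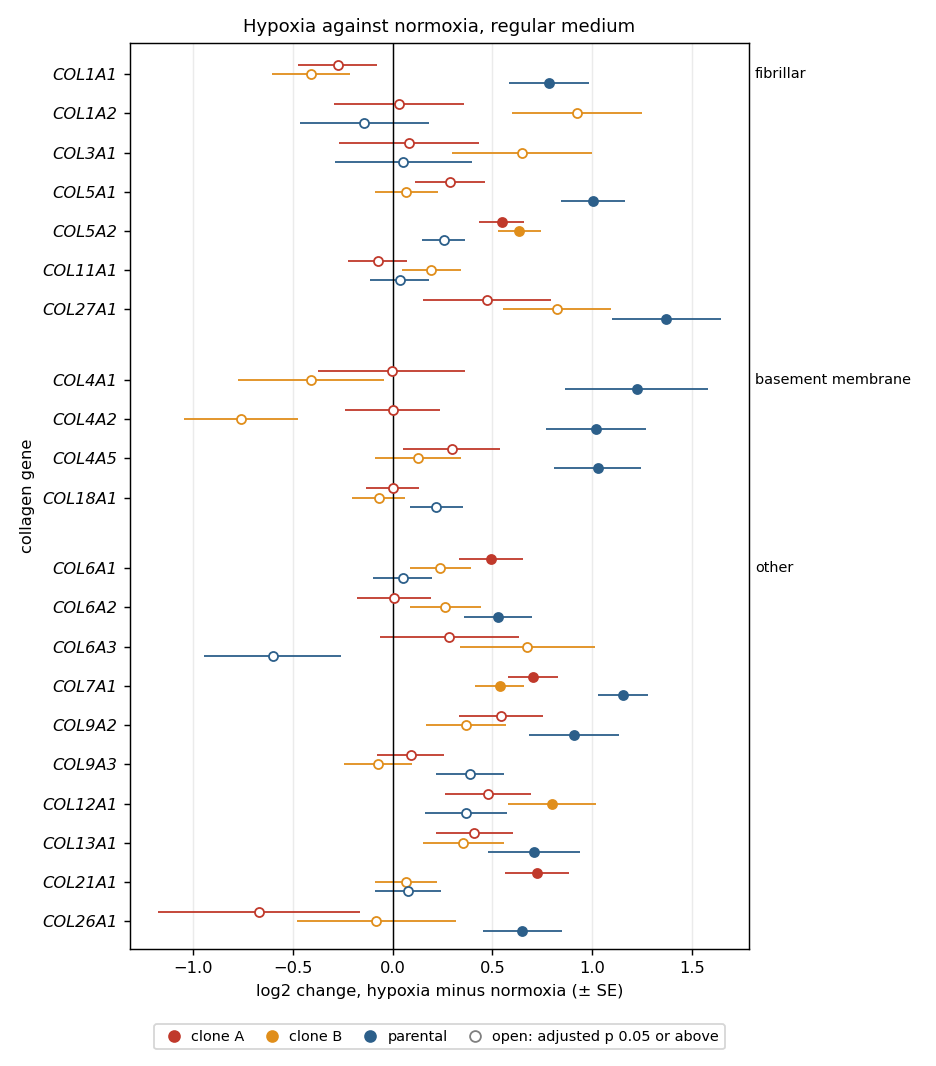
Log2 change of hypoxia minus normoxia in regular medium (x axis, bars ± SE of the fit) for the 21 members with a group mean of at least 5 CPM, with clone A in red, clone B in orange, parental cells in blue and open points at an adjusted p of 0.05 or above. COL7A1 is filled in all 3 genotypes, and COL1A1, COL5A1 and COL4A2 lie to the right in parental cells and near or below 0 in clone B.

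The difference between responses was tested directly. The hypoxia response of clone A differed from that of parental cells in 1 member, COL1A1, which was lower, and 0 were higher (4.04% and 2.19% of all tested genes). Of higher members, 3 reached an unadjusted p under 0.05 in edgeR's test and DESeq2 called 1. COL1A1 differed by -1.06 ± 0.28 (adjusted p = 0.0211), and it stood at -0.28 ± 0.20 in clone A itself. The call was lost at -1.05 (adjusted p = 0.0521) without clone A hypoxia replicate 3, -1.03 (adjusted p = 0.0512) without parental hypoxia replicate 3, -1.01 (adjusted p = 0.0536) without parental normoxia replicate 2 and -1.04 (adjusted p = 0.0542) without parental normoxia replicate 3. The count for clone A was 6 in a fit of only the libraries compared, 3 with DESeq2, 4 without clone A hypoxia replicate 2, 3 without clone A normoxia replicate 1 and 2 without clone A hypoxia replicate 1. Of all 13943 tested genes, the fit of only the libraries compared called 2617 and DESeq2 1296. Without the 3 libraries named above the count of members was 3 lower and 2 higher, beside 923 of all tested genes called in either direction.

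Clone B had 4 members with a lower log2 change in hypoxia than parental cells and 0 with a higher one (3.24% and 1.49%). Of higher members, 4 reached an unadjusted p under 0.05 in edgeR's test and DESeq2 called 0. A fit of only the libraries compared called 12 members in either direction, beside 2594 of all 13943 tested genes. The 4 were COL4A2 (-1.78 ± 0.38, adjusted p = 0.00476), COL1A1 (-1.19 ± 0.28, adjusted p = 0.011), COL5A1 (-0.94 ± 0.23, adjusted p = 0.0131) and COL7A1 (-0.62 ± 0.17, adjusted p = 0.0369). In clone B itself COL4A2 stood at -0.76 ± 0.28 and COL1A1 at -0.41 ± 0.20 in hypoxia, neither past the test. COL4A2, COL1A1 and COL5A1 kept their calls whichever of the 12 libraries was left out. COL7A1 lost its call in 9 of 12 such fits, at -0.52 to -0.65 (adjusted p = 0.0617 to 0.118) when each of these libraries in turn was left out, namely clone B hypoxia replicate 2, clone B hypoxia replicate 3, clone B normoxia replicate 1, clone B normoxia replicate 3, parental hypoxia replicate 1, parental hypoxia replicate 2, parental hypoxia replicate 3, parental normoxia replicate 1 and parental normoxia replicate 2.

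In TIFM more members were called lower than higher in every genotype, and more were called lower in each clone than in parental cells. In clone A 16 members were lower and 2 higher in TIFM than in regular medium under hypoxia (34.2% and 33% of all tested genes), in clone B 20 lower and 2 higher (27.9% and 25.9%), and in parental cells 8 lower and 6 higher (20.4% and 21.8%). The share of members called lower was above that of all genes in both clones and close to it in parental cells, and the share called higher was below it in every genotype. The median change of the members was -0.45 in clone A, -0.61 in clone B and -0.12 in parental cells, beside -0.0257, -0.0287 and -0.0032 over all tested genes. Without the 3 libraries named above 19 members were lower and 2 higher in clone A, and 13 lower and 5 higher in parental cells. Of all tested genes, 8967 were then called in clone A and 5840 in parental cells, in either direction. The keratin sum and VIM were also lower in TIFM than in hypoxia in every genotype with no overlap, at the values given above, and their part in the collagen values was not tested. KRT8 and KRT19 each fell in this way, but not every keratin did. KRT7 averaged 7.36, 6.48 and 9.30 CPM in TIFM in clone A, clone B and parental cells, against 2.76, 6.21 and 6.69 CPM in hypoxia. KRT18 in clone A averaged 668 CPM in TIFM and 603 CPM in hypoxia.

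COL1A1, COL5A2, COL11A1, COL4A5, COL7A1, COL9A2, COL9A3 and COL21A1 fell in TIFM in all 3 genotypes. How many of all tested genes fell, or rose, in TIFM in all 3 genotypes was not counted. Lists of members called alike in all 3 are therefore descriptions. COL21A1 fell most among members of at least 5 CPM in clone A and parental cells, to the values given above, at -4.30 ± 0.22 in clone A (19.8-fold, adjusted p = 1.18e-14), -1.89 ± 0.17 in clone B (adjusted p = 9.87e-10) and -2.11 ± 0.19 in parental cells (adjusted p = 5.09e-09). In each genotype its libraries in TIFM lay below those in regular medium. COL1A1 fell, at -2.09 ± 0.21 in clone A, -1.95 ± 0.20 in clone B and -0.76 ± 0.20 in parental cells. COL11A1 fell, at -1.47 ± 0.15 in clone A, -0.51 ± 0.15 in clone B and -0.75 ± 0.15 in parental cells, and COL5A2 at -1.53 ± 0.12 in clone A, -0.59 ± 0.11 in clone B and -0.65 ± 0.11 in parental cells. For none of these 4 genes did TIFM libraries overlap those of regular medium under hypoxia in any genotype.

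Among non-fibrillar members COL7A1 fell, at -1.21 ± 0.13 in clone A, -1.12 ± 0.13 in clone B and -0.51 ± 0.12 in parental cells. COL7A1 in hypoxia with TIFM stood at 10.8, 9.49 and 9.63 CPM in clone A, 14.04, 11.5 and 14.5 CPM in clone B and 22.03, 20.9 and 22.6 CPM in parental cells. These values lay below those of the same genotype in hypoxia. COL9A3 fell, at -2.20 ± 0.19 in clone A, -1.18 ± 0.18 in clone B and -0.74 ± 0.17 in parental cells, and COL4A5 at -2.42 ± 0.30 in clone A, -1.01 ± 0.22 in clone B and -1.24 ± 0.22 in parental cells. COL13A1 fell, at -2.67 ± 0.22 for clone A (adjusted p = 6.17e-11) and -2.06 ± 0.22 for clone B (adjusted p = 3.15e-08), and stood at -0.56 ± 0.23 in parental cells. COL6A1 fell in clone A (-1.04 ± 0.17) and clone B (-0.89 ± 0.16) and stood at -0.07 ± 0.15 in parental cells.

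Parental cells had 6 members that rose in TIFM. COL4A2 rose by 0.82 ± 0.24 (adjusted p = 0.0081) and COL6A2 by 0.73 ± 0.17 (adjusted p = 0.00122), each with all TIFM libraries above those in regular medium. COL5A1 rose in parental cells by 0.46 ± 0.16 (adjusted p = 0.0215) and fell in clone B, at -0.63 ± 0.16 (adjusted p = 0.00166). The parental call was lost at 0.43 (adjusted p = 0.0645) without parental TIFM replicate 1, 0.41 (adjusted p = 0.0717) without parental TIFM replicate 2 and 0.40 (adjusted p = 0.0903) without parental hypoxia replicate 2. COL18A1 rose in parental cells by 0.39 ± 0.13 (adjusted p = 0.0205), and stood at 0.26 (adjusted p = 0.146) without parental TIFM replicate 2 and 0.38 (adjusted p = 0.0592) without parental hypoxia replicate 2. COL4A1 fell in clone A, at -1.53 ± 0.41 and in clone B at -2.59 ± 0.46, and stood at -0.71 ± 0.35 in parental cells.

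COL20A1, a fibril-associated collagen chosen here after its values were seen, was near 0 in hypoxia without TIFM and higher in TIFM in every genotype. In clone A it had 2.84, 3.04 and 2.17 CPM in TIFM, against 0.0644, 0.0631 and 0.0893 CPM in regular medium. In clone B the values were 1.94, 2.68 and 2.57 CPM in TIFM, against 0.383, 0.565 and 0.221 CPM in regular medium. Parental cells had 1.29, 1.53 and 1.04 CPM in TIFM, against 0.126, 0.0503 and 0 CPM in regular medium. No TIFM library overlapped one in regular medium. Because the gene was picked for this pattern and passed the low-count filter through its TIFM libraries, the values are a description with no test. COL11A2 was the other member called higher in all 3 genotypes, at 2.62 CPM or less in every library.

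COL1A2 and COL3A1 depended on the libraries that stood apart. With all libraries COL1A2 stood at -0.17 ± 0.33 in clone A and -0.02 ± 0.32 in parental cells. Without the 3 libraries it stood at -0.78 in clone A and -0.72 in parental cells. COL3A1 stood at -0.35 ± 0.36 in clone A and -0.26 ± 0.35 in parental cells with all libraries, and at -0.91 in clone A and -0.87 in parental cells without them. The libraries were picked for high values of these genes, which lowers the TIFM means by construction, so no p is given. In clone B, whose libraries were all kept, COL1A2 fell, at -1.31 ± 0.33 (adjusted p = 0.00164) and COL3A1 at -1.47 ± 0.36 (adjusted p = 0.00141).

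**Figure D5:**
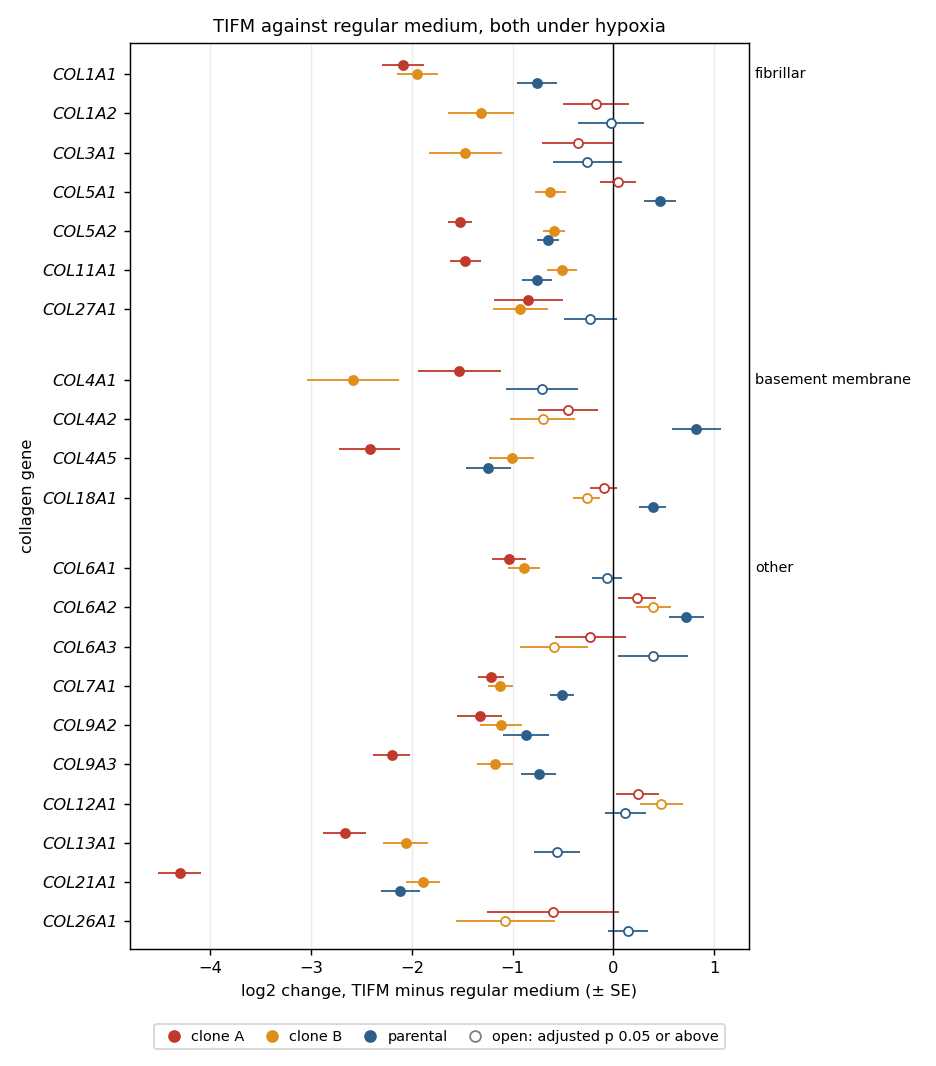
Log2 change of TIFM minus regular medium, both under hypoxia (x axis, bars ± SE of the fit), for the 21 members with a group mean of at least 5 CPM, with clone A in red, clone B in orange, parental cells in blue and open points at an adjusted p of 0.05 or above. COL21A1, COL1A1, COL11A1 and COL5A2 lie to the left in all 3 genotypes, and COL4A2 lies to the right in parental cells.

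The response to TIFM differed between clones and parental cells in the same direction wherever it was called. Clone A had 12 members with a lower log2 change in TIFM than parental cells and 0 with a higher one (19.6% and 19.3% of all tested genes). Clone B had 9 lower and 0 higher (6.34% and 4.06%). A lower log2 change can be a larger fall, and COL21A1, COL1A1 and COL9A3 fell further in clone A than in parental cells. Of higher members, 1 in each clone reached an unadjusted p under 0.05 in edgeR's test, and DESeq2 called 0. Without the 3 libraries these counts were 12 lower and 1 higher in clone A and 8 lower and 0 higher in clone B, and the count in clone B was 5 without clone B TIFM replicate 1. Of all tested genes, 4576 were called for clone A and 2027 for clone B without the 3 libraries, in either direction. In clone A the largest differences among members of at least 5 CPM were those of COL21A1 (-2.19 ± 0.30, adjusted p = 3.91e-06), COL13A1 (-2.11 ± 0.31, adjusted p = 1.07e-05) and COL9A3 (-1.46 ± 0.25, adjusted p = 6.86e-05). COL1A1 differed in clone A by -1.33 ± 0.29 (adjusted p = 0.000691) and in clone B by -1.19 ± 0.28 (adjusted p = 0.00766).

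In clone B the difference was -1.50 ± 0.32 for COL13A1 (adjusted p = 0.00356) and -1.09 ± 0.22 for COL5A1 (adjusted p = 0.0027). COL4A2 stood at -1.52 ± 0.40 (adjusted p = 0.0164) in clone B, and at -1.37 (adjusted p = 0.0539) without clone B TIFM replicate 1. In clone A COL4A2 stood at -1.27 ± 0.39 (adjusted p = 0.0107), and at -0.95 (adjusted p = 0.0603) without clone A hypoxia replicate 2. COL4A1 in clone B differed by -1.88 ± 0.58 (adjusted p = 0.0388), a call lost in 10 of 12 fits without 1 library, at -1.55 to -1.97 (adjusted p = 0.0517 to 0.0998) when each of these libraries in turn was left out, namely clone B TIFM replicate 1, clone B TIFM replicate 3, clone B hypoxia replicate 1, clone B hypoxia replicate 2, clone B hypoxia replicate 3, parental TIFM replicate 1, parental TIFM replicate 2, parental hypoxia replicate 1, parental hypoxia replicate 2 and parental hypoxia replicate 3.

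Members with low counts were treated apart. COL10A1, known from growth plate cartilage, had 0 counts in all libraries, which allows up to 3 counts per library, and COL19A1, COL25A1, COL28A1, COL6A5 and COL9A1 had at most 8 counts in any library. These 6 were not tested. A further 17 tested members stayed below 5 CPM on average in every group. COL6A6, a chain of type VI collagen, had 12 counts in clone A TIFM and 13 in clone B TIFM, against 1 in parental TIFM, a ratio of 14.3 for clone A (95% exact interval 2.12 to 612) and 13.1 for clone B (1.96 to 555), which covers counting error only.

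Genes that fold, process and bind collagen were followed as lists chosen by function. Among 20 genes of collagen folding and modification, hypoxia raised 3 and lowered 6 in clone A, raised 1 and lowered 4 in clone B, and raised 5 and lowered 1 in parental cells. Hypoxia called 10.4% of all tested genes higher and 11.8% lower for clone A, 4.46% higher and 4.84% lower for clone B, and 15.4% higher and 14.9% lower for parental cells. PLOD2, the lysyl hydroxylase of collagen tails, rose by 1.30 ± 0.21 in clone A, 0.68 ± 0.20 in clone B and 2.01 ± 0.21 in parental cells. P4HA1, a catalytic subunit of prolyl hydroxylase, rose by 0.62 ± 0.13 in clone A and 1.75 ± 0.13 in parental cells and stood at 0.31 ± 0.13 in clone B. Its response was lower than in parental cells, at -1.13 ± 0.18 for clone A and -1.44 ± 0.18 for clone B. In TIFM P4HA1 fell, at -1.87 ± 0.13 in clone A, -1.46 ± 0.13 in clone B and -0.74 ± 0.13 in parental cells, while SERPINH1, the collagen chaperone HSP47, rose by 1.20 ± 0.15 in clone A, 0.49 ± 0.14 in clone B and 0.91 ± 0.14 in parental cells. TIFM raised 6 and lowered 9 of the 20 in clone A, raised 3 and lowered 10 in clone B, and raised 4 and lowered 6 in parental cells. TIFM called 33% of all tested genes higher and 34.2% lower for clone A, 25.9% higher and 27.9% lower for clone B, and 21.8% higher and 20.4% lower for parental cells.

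Among 13 genes of procollagen processing and crosslinking, hypoxia raised 2 and lowered 1 in clone A, raised 2 and lowered 0 in clone B, and raised 6 and lowered 1 in parental cells, to be read against the shares of all tested genes just given for hypoxia. The crosslinking enzyme LOX rose by 1.01 ± 0.34 in clone A, 1.34 ± 0.26 in clone B and 2.85 ± 0.31 in parental cells. These rises were from low levels, with mean LOX in normoxia and hypoxia at 0.388 and 0.788 CPM in clone A. It was 1.21 and 3.07 CPM in clone B and 0.341 and 2.48 CPM in parental cells. LOXL2 rose by 0.90 ± 0.14 in clone A, 0.86 ± 0.14 in clone B and 1.19 ± 0.14 in parental cells. Of 8 collagen receptors, hypoxia raised 1 in clone A, 1 in clone B and 4 in parental cells and lowered 0, against 10.4%, 4.46% and 15.4% of all tested genes called higher in clone A, clone B and parental cells. The receptor kinase DDR2 rose in each, by 1.36 ± 0.20 in clone A, 1.02 ± 0.19 in clone B and 1.51 ± 0.20 in parental cells. Of 5 tested proteases, MMP2, which cleaves gelatin and type IV collagen, was lower in normoxia in clone A (-3.39 ± 0.13) and clone B (-1.16 ± 0.12) than in parental cells. Of 10 tested genes of the TGF-beta pathway, known to drive collagen transcription, TIFM raised 4 and lowered 5 in clone A, raised 4 and lowered 0 in clone B, and raised 5 and lowered 0 in parental cells. Of all tested genes, TIFM called 33% higher and 34.2% lower in clone A. The shares were 25.9% and 27.9% in clone B, and 21.8% and 20.4% in parental cells. With 10 genes in the list, no reading is drawn from these counts.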

How the data were processed

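RNA of Panc1 cells was sequenced in 27 libraries, and the authors deposited counts per gene. Per the submitters' processing notes HISAT2, featureCounts and GRCh38 were used; no version or strand setting is stated there. From these counts, genes were kept with edgeR's filterByExpr (minimum count 10, minimum total 15), which left 13943, and scaled with TMM. One quasi-likelihood model over the 9 groups (edgeR 4.0.16, R 4.3.3) gave 19 comparisons, each adjusted by Benjamini-Hochberg over all tested genes with a threshold of 0.05. The code was tested on simulated data. Exon lengths and coordinates came from GENCODE release 29, promoters from RefSeq (GRCh38.p14). Values in every library were given for up to 6 members per class with the highest mean CPM, except COL4A3 and COL4A6. COL4A3 was given as a range and COL4A6 as group means and parental values. Changes were given for the 3 largest called in each direction among members of at least 5 CPM. Other members and the genes named from other lists were chosen after their values were seen. Members and lists were chosen with earlier results of these data known. Alternatives were DESeq2 1.42.0, its size factors, no filter, only the libraries compared, a replicate block and leaving out libraries.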

Additional observations from a re-analysis of the deposited data

Results flagged for a closer look

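The 26 results below are differences between a clone and parental cells in the response to hypoxia or to TIFM, each found by a direct test of that difference in edgeR's quasi-likelihood fit (adjusted p under 0.05). All 26 are negative, meaning a less positive or more negative log2 change in the clone, and they share parental libraries. A negative value can thus be a smaller rise or a larger fall in the clone. Each value is a log2 difference of responses, and its cause was not tested.

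For hypoxia, COL1A1 differed by -1.06 for clone A and -1.19 for clone B. In clone B the differences were -1.78 for COL4A2, -0.94 for COL5A1 and -0.62 for COL7A1.

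For TIFM in clone A, fibrillar genes differed by -1.33 (COL1A1), -0.87 (COL5A2) and -0.71 (COL11A1). Basement membrane genes differed by -1.27 (COL4A2), -1.18 (COL4A5) and -0.49 (COL18A1). Other types differed by -2.19 (COL21A1), -2.11 (COL13A1), -1.52 (COL8A2), -1.46 (COL9A3), -0.97 (COL6A1) and -0.70 (COL7A1).

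For TIFM in clone B, fibrillar genes differed by -1.19 (COL1A1) and -1.09 (COL5A1), and basement membrane genes by -1.88 (COL4A1), -1.52 (COL4A2), -0.66 (COL18A1) and -2.47 (COL15A1). Other types differed by -1.50 (COL13A1), -0.82 (COL6A1) and -0.61 (COL7A1). COL15A1 rests on parental TIFM replicate 1, and stood at -0.98 without the 3 libraries that stood apart. Those were chosen after the values were seen, so no p is given.

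Leaving out 1 of 12 libraries at a time, the call was lost in at least 1 fit for COL1A1 (hypoxia, clone A, 4 fits), COL7A1 (hypoxia, clone B, 9 fits), and, for TIFM, COL18A1 (9 fits in clone A, 6 in clone B), COL4A5 (clone A, 2), COL4A2 (1 in each clone), COL4A1 (clone B, 10), COL7A1 (clone B, 5), COL6A1 (clone B, 1) and COL15A1 (clone B, 1). COL4A5 in clone A stood at -0.99 (adjusted p = 0.0566) without clone A TIFM replicate 3 and -0.91 (adjusted p = 0.0575) without parental TIFM replicate 3. COL6A1 in clone B stood at -0.68 (adjusted p = 0.0635) without clone B TIFM replicate 1.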

How the results depend on the processing

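Of 19 counts of called members, 15 stayed within 1.5 times under DESeq2, its size factors, no filter, only the libraries compared and the replicate block. Fitting only the libraries compared gave 9 called members for hypoxia in clone A (5 in the fit of all libraries), 14 for hypoxia in clone B (4), 6 for the difference of hypoxia responses between clone A and parental cells (1) and 12 for that of clone B minus parental cells (4). Of all 13943 tested genes it called 4925, 4258, 2617 and 2594, in the same order. For the response of clone A, DESeq2 gave 3, and leaving out the 3 libraries that stood apart together, chosen after seeing the data, gave 5. Leaving out 1 library at a time gave 3 to 5 for hypoxia in clone A, 2 to 3 for hypoxia in clone B, 0 to 4 for the difference of hypoxia responses between clone A and parental cells and 5 to 11 for the TIFM response of clone B minus parental cells. DESeq2's size factors shifted the median of all genes by at most 0.038 (log2).

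Signs turned for 3 members. Without parental TIFM replicate 1 COL8A1 stood at -2.38 for TIFM in parental cells (0.11 with it), 2.49 for clone A minus parental cells in TIFM (-0.00) and 2.04 for the TIFM response of clone A minus parental cells (-0.46). Over all fits without 1 library these values ran up to 0.60 for the first and down to -0.49 and -0.95 for the others. Leaving out the 3 libraries gave -2.37, 2.20 and 1.78 for the same comparisons. COL15A1 in clone B minus parental cells in TIFM stood at 0.26 without that library (from -1.64 over all fits without 1 library) and 0.26 without the 3 libraries (-1.22 with all), and COL6A3 there at 0.59 without the 3 libraries (-0.01, not called). In all, 250 gene-level calls were lost and 67 gained over the fits without 1 library.

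The replicate block gave 5 called members for hypoxia in clone B (4 without it), 21 for clone B minus parental cells in hypoxia (22) and 20 in TIFM (21), and 19 and 20 for clone B minus clone A in normoxia (18) and TIFM (19), and left the other counts unchanged. Correlations of same-numbered libraries ran from -0.116 to 0.45, and in 0 of 15 comparisons of 2 groups were all pairs over 0.1. In 1 (hypoxia in clone A, 0.00579 to 0.01538) every library correlated best with its own number, so the numbers were not taken to pair samples. Between TIFM groups, 4 of 6 libraries did so for clone A against parental cells. For clone B it was 5 of 6 against parental cells and 5 of 6 against clone A. A batch shared by TIFM libraries was not tested.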
